A study of Brassica rapa with 6 samples.

Results

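The loci described here are the MADS-box and flowering-time genes of Chinese cabbage, 141 of the 49200 loci in the deposited expression table. A locus was included if it was listed under a single gene name and its description held, in any case, FRIGIDA, VERNALIZATION, SUPPRESSOR OF CONSTANS, Short Vegetative Phase, FLOWERING LOCUS, agamous-like or MADS-box. The rule used descriptions and no measured value, but it was set with earlier results of these data known. RNA was sequenced from 3 petiole libraries and 3 leaf libraries of baby Chinese cabbage, which belongs to the species *Brassica rapa* and forms small heads. The petiole is the stalk that bears the blade of the leaf. All plants were of an inbred line, received no treatment and were mature when sampled, and the labels give neither the age in days nor a cold or day-length regime. Whether each library is a separate plant is not stated, so the p-values rest on the spread between libraries alone, and that spread may be technical.

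In *Arabidopsis thaliana*, a relative in the same family, flowering is held back by the MADS-box repressor FLOWERING LOCUS C (FLC), which FRIGIDA activates and long cold silences through VERNALIZATION proteins and the polycomb complex. FLC acts with Short Vegetative Phase (SVP) on the integrators FLOWERING LOCUS T (FT) and SUPPRESSOR OF OVEREXPRESSION OF CONSTANS 1 (SOC1); FT is made in the phloem of the leaf and moves to the shoot tip, where SOC1 and the floral organ genes are switched on. Most type I MADS-box genes, a separate branch of the family, are known from Arabidopsis in the female gametophyte and the endosperm of the seed. Roles below are those of the Arabidopsis genes unless another species is named.

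The estimated counts summed to 120805715 to 132861243 units per petiole library and to 111518411 to 121161682 units per leaf library. A sequenced fragment added about 3.76 units, so these totals overstate the fragments by that factor. Levels are given as CPM, the count per library size after TMM scaling, which assumes that most loci do not differ. A log2 fold change is the petiole level less the leaf level and is followed by its standard error (SE). Levels of different loci are compared only in the deposited FPKM, which is per transcript length. Tissue markers followed the labels. The vascular and xylem markers summed to 130.3 to 165.8 CPM in petiole and 46.0 to 52.3 CPM in leaf, and the light-harvesting and Rubisco markers of mesophyll to 367.9 to 402.0 CPM in petiole and 4275 to 4660 CPM in leaf. Of the shoot meristem markers, 3 of 4 loci had no count in any library, and SHOOT MERISTEMLESS averaged 0.0474 CPM in petiole and 0 in leaf.

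Of the 141 loci, 59 (41.8%) had no count in any of the 6 libraries, against 26.9% of all loci in the table. Another 27 had some counts but too few to test, with at most 35 units in any library. The remaining 55 (39.0%, against 64.0% of all loci) passed the filter on low counts, and 46 of the 141 were detected in all 6 libraries. The silent loci were not spread evenly over the roles. Every locus of the FLC clade, the VERNALIZATION proteins and FLOWERING LOCUS K was tested, and so were 12 of 13 FRIGIDA and related loci, while 8 of 67 type I and MIKC star loci were. The floral organ and meristem identity group had 3 of 12 loci tested.

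**Figure D1:**
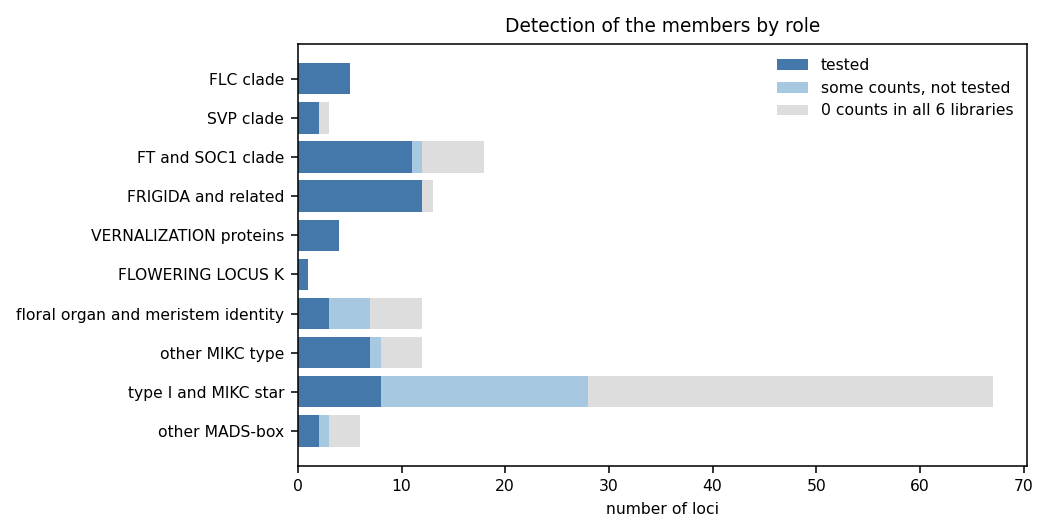
Number of loci (x axis) in each role group (y axis), split into loci tested, loci with some counts but not tested, and loci with 0 counts in all 6 libraries. The type I and MIKC star group holds 67 loci, of which 39 had no counts, while all 5 FLC clade loci were tested.

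The table was tested as a whole with edgeR's quasi-likelihood test and Benjamini-Hochberg adjustment, which called 62.6% of 31473 loci at an adjusted p under 0.05, 31.5% higher and 31.1% lower in petiole. Of the 55 flowering loci tested, 12 rose in petiole relative to leaf, 18 fell and 25 did not pass, so 54.5% were called. At 2-fold or more, 8 rose and 7 fell, which is 27.3% against a background of 34.5%. The libraries of the tissues did not overlap for 38 of the 55 loci (69.1%, against 71.3% of all loci tested). The share called was thus near that of the whole table, and the median log2 fold change was -0.18, against 0.01 over all loci tested. The median size of the change was 0.80 on the log2 scale, against 0.78. Since these are bulk tissues, fewer cells of a type and less RNA per cell cannot be told apart. Loci that passed the filter had to be expressed in at least part of the libraries, so these shares do not describe all 141.

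The split between higher and lower depended on how libraries were scaled. TMM assumes that most loci do not differ, yet 62.6% of all loci tested were called with it. With library totals in place of TMM the counts were 15 higher and 13 lower (53.6% of those called were higher), and with limma on log2(FPKM + 1) they were 24 higher and 7 lower (77.4%). The median of all loci moved with them, to 0.32 with library totals and 0.47 on FPKM, and over all loci the higher share of called loci was 50.3% with TMM and 78.6% on FPKM. All 12 loci called higher with TMM were also positive on FPKM. Since the median of all loci moved towards petiole there, these loci could hardly turn negative, and their kept sign adds no support. Of the 18 called lower, 10 were negative on FPKM too, and the other 8 turned positive there, below the FPKM median of all loci. These 8 are named as such where they appear.

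**Figure D2:**
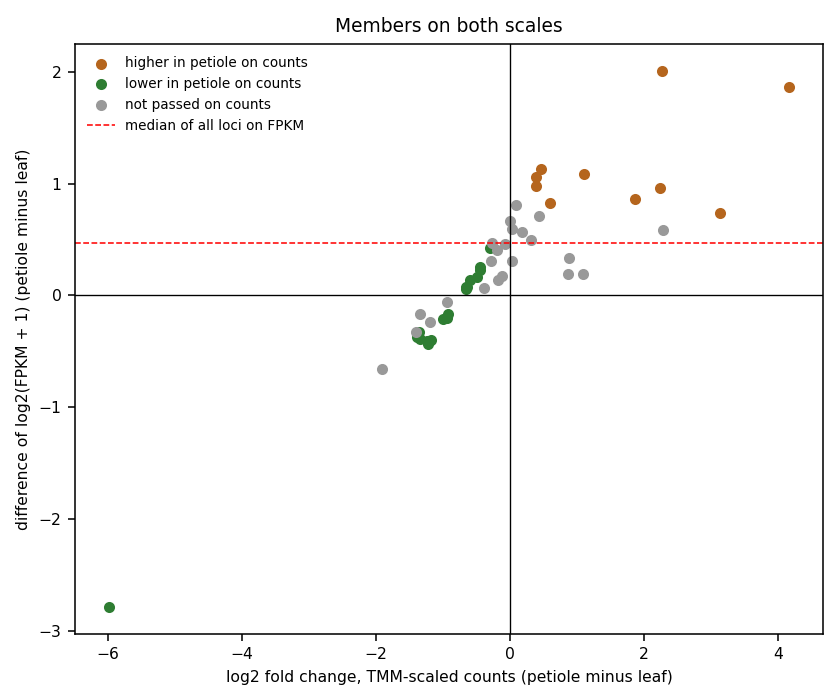
Each point is a tested locus, with its log2 fold change on TMM-scaled counts (x axis) and its difference of log2(FPKM + 1) (y axis), both petiole minus leaf, and coloured by its call on counts. The dashed line is the FPKM median of all loci, 0.47. The points called lower that lie above 0 on the y axis are the 8 whose sign depends on the scaling. Not drawn are 2 loci with no leaf counts, and AGL9 BraA07g012310.3C and AGL65 BraA09g057040.3C, which were not in the FPKM fit.

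The FLC clade, the repressors of flowering, was expressed in both tissues. The FLC locus MSTRG.3264 (A02:1616321-1619579, minus strand) had 30.8, 27.4 and 27 CPM in the petiole libraries and 20.1, 20.7 and 21.3 CPM in the leaf libraries. Its petiole libraries all lay above its leaf libraries, with a log2 fold change of 0.46 ± 0.08 (SE, edgeR adjusted p = 4.33e-04). It was also positive with library totals and on FPKM, scalings that move the median of all loci towards petiole. It was the only locus of the clade that passed. The other FLC copy, MSTRG.30494 (A10:18122569-18127927, plus strand), had 19.2, 13.9 and 18.4 CPM in petiole and 17.2, 15.5 and 18.7 CPM in leaf. Its tissues overlapped and its log2 fold change was 0.00 ± 0.13 (SE, edgeR adjusted p = 0.987), though on log2(FPKM + 1) it passed at 0.66, close to the shift of all loci.

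Another locus, MSTRG.6366 (A03:1785605-1788549, minus strand), described as FLC-like, had 1.25 to 1.79 CPM in petiole and 1.74 to 2.35 CPM in leaf and did not pass (edgeR adjusted p = 0.39). It lies inside MSTRG.6335, a potassium transporter locus on the other strand, and no source says that the strand was used in counting. A further FLC-like locus, MSTRG.7151 on A03, is listed under several gene names and so is not among the 141; it averaged 6.36 CPM in petiole and 8.33 CPM in leaf, and its log2 fold change was -0.39 ± 0.14 with TMM (SE, edgeR adjusted p = 0.0365) and 0.19 on FPKM. It and the MAF5-like loci below were chosen after their values were seen.

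AGL27, also known as FLOWERING LOCUS M, is a relative of FLC that delays flowering according to temperature. MSTRG.5935 (A02:30859358-30863422) had 13.1, 12.7 and 12.6 CPM in petiole and 18.8, 11 and 16.3 CPM in leaf. The leaf libraries spread on both sides of the petiole ones, with a log2 fold change of -0.26 ± 0.17 that did not pass (SE, edgeR adjusted p = 0.216). Without leaf replicate 2, the low one, it was -0.46 and passed (edgeR adjusted p = 0.00483), and on FPKM it was 0.47. The second AGL27 locus, MSTRG.17395 (A06:19743867-19744662), had 0.232 to 0.47 CPM in petiole and 0.672 to 0.863 CPM in leaf, without overlap, and did not pass (log2 fold change -1.19 ± 0.58, SE, edgeR adjusted p = 0.0952). A MAF5-like locus next to it, MSTRG.17396, is outside the 141 because its description lacks the search words; it averaged 4.67 CPM in petiole and 7.23 CPM in leaf (log2 fold change -0.63 with TMM, edgeR adjusted p = 0.00834, and 0.08 on FPKM). Both further MAF5-like loci, which lie near AGL27 MSTRG.5935, did not pass. MSTRG.5933 had 0.106 to 0.494 CPM in petiole and 0.294 to 0.41 CPM in leaf (log2 fold change -0.29 ± 0.83, SE, edgeR adjusted p = 0.779). MSTRG.5937 had 0.172 to 0.232 CPM in petiole and 0 to 0.0933 CPM in leaf, without overlap (log2 fold change 2.34 ± 1.34, SE, edgeR adjusted p = 0.149), though it passed on log2(FPKM + 1) at 0.37 (limma adjusted p = 0.0121).

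SVP and AGL24 belong to one clade and act in opposite ways, SVP as a repressor and AGL24 as a promoter of flowering. The SVP locus MSTRG.27814 (A09:39615721-39619740) had 72.3, 70.8 and 73.5 CPM in petiole and 90.6, 87.1 and 89.2 CPM in leaf. Its leaf libraries were all higher, and it fell by 0.30 on the log2 scale with TMM (SE 0.04, edgeR adjusted p = 1.45e-04), but the sign was not kept with library totals (0.01) or on FPKM (0.42). In the AGL24-like locus MSTRG.9647 (A03:26833319-26836518) the levels were 13.4, 10.8 and 14.1 CPM in petiole and 10.7, 9.7 and 8.96 CPM in leaf. The lowest petiole library lay just above the highest leaf library, and the locus rose by 0.38 ± 0.13 on the log2 scale (SE, edgeR adjusted p = 0.023). The call was lost without petiole replicate 1, petiole replicate 3, leaf replicate 2 or leaf replicate 3 (adjusted p 0.0755, 0.0914, 0.0588 and 0.075), and the end of the locus overlaps MSTRG.9648, an AP-4 complex subunit gene on the other strand. A second SVP locus, BraA04g016520.3C, had no counts.

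The SOC1 clade held the widest spread of any group in which most loci were tested, with log2 fold changes between -5.98 and 4.16. SOC1 itself is the integrator of the cold, day-length and gibberellin routes. The locus MSTRG.12931 (A05:2723784-2727265) had 11.1, 10.8 and 11.9 CPM in petiole and 26.3, 26.6 and 23.5 CPM in leaf. Every leaf library was over the highest petiole library, and SOC1 was 2.26-fold lower in petiole (log2 fold change -1.18 ± 0.09, SE, edgeR adjusted p = 7.85e-07), negative also on FPKM at -0.40. The SOC1-like locus MSTRG.12469 (A04:21430124-21433585) had 0.351, 0.211 and 0.127 CPM in petiole and 14.7, 15.2 and 14.2 CPM in leaf. It was near the detection limit in petiole and 63.0-fold lower there than in leaf, the largest change in either direction among loci with counts in both tissues (log2 fold change -5.98 ± 0.28, SE, edgeR adjusted p = 4.93e-08). The remaining copy, MSTRG.7709 (A03:11418619-11421956), had 2.54, 2.94 and 2.28 CPM in petiole and 2.49, 1.94 and 2.40 CPM in leaf. Its tissues overlapped and it did not pass (log2 fold change 0.18 ± 0.22, SE, edgeR adjusted p = 0.499), though on log2(FPKM + 1) it passed at 0.57.

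The copies therefore made up the SOC1 transcript pool differently in the tissues, which can be read within each library and does not depend on library scaling. Of the summed FPKM of the 3 copies, MSTRG.12469 held 1.69% ± 0.862 in petiole and 36.0% ± 0.83 in leaf (SD, n = 3 each). MSTRG.12931 held 78.0% ± 3.08 in petiole and 58.1% ± 1.16 in leaf, and MSTRG.7709 held 20.3% ± 2.71 in petiole and 5.89% ± 0.902 in leaf. None of these shares overlapped between tissues. An exact permutation test, two-sided, gave p = 0.1 for each, the smallest that 3 against 3 libraries allow, so no share can pass 0.05. Reads shared between near-identical copies could have been divided by the authors' counting, which puts some uncertainty on the shares of each copy.

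**Figure D3:**
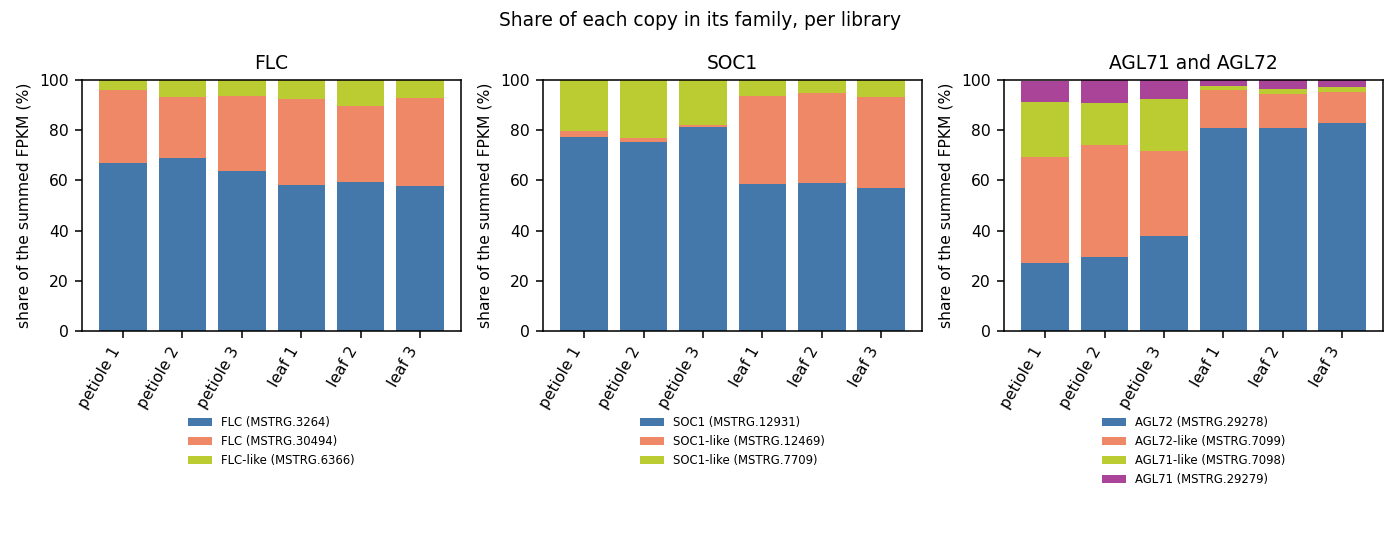
Share of each copy (y axis, percent of the summed FPKM of the family) in each library (x axis) for FLC, SOC1 and the AGL71 and AGL72 group. The SOC1-like copy MSTRG.12469 averages 1.69% in petiole and 36.0% in leaf, and AGL72 copy MSTRG.29278 averages 31.4% in petiole and 81.6% in leaf.

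AGL71 and AGL72 are close relatives of SOC1 that promote flowering, and in Chinese cabbage they lie as neighbours at 2 places. On A03 the AGL71-like locus MSTRG.7098 (6812190-6815532) and the AGL72-like locus MSTRG.7099 (6821840-6824547) lie on the plus strand 6307 bases apart with 0 loci between them. MSTRG.7098 had 7.80, 6.65 and 8.13 CPM in petiole and 0.304, 0.476 and 0.475 CPM in leaf, and rose 17.9-fold (log2 fold change 4.16 ± 0.23, SE, edgeR adjusted p = 8.67e-08). MSTRG.7099 had 14.3, 17.1 and 12.8 CPM in petiole and 3.31, 3.06 and 2.82 CPM in leaf, and rose 4.82-fold (log2 fold change 2.27 ± 0.14, SE, edgeR adjusted p = 2.24e-07). In both the petiole libraries were well clear of the leaf libraries.

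On A10 the pair is AGL72 MSTRG.29278 (8607544-8610516) and AGL71 MSTRG.29279 (8613764-8619254), on the minus strand 3247 bases apart with 0 loci between. These neighbours went opposite ways with TMM. AGL71 had 1.72, 2.09 and 1.69 CPM in petiole and 0.314, 0.457 and 0.398 CPM in leaf, and rose 4.70-fold (log2 fold change 2.23 ± 0.35, SE, edgeR adjusted p = 2.62e-04). AGL72 had 5.07, 6.24 and 7.90 CPM in petiole and 9.74 to 10.4 CPM in leaf, without overlap, and fell by 0.65 on the log2 scale with TMM (SE 0.16, edgeR adjusted p = 0.00484), but missed the threshold with library totals (-0.35, edgeR adjusted p = 0.0793) and was 0.05 on FPKM. Of the summed FPKM of these loci, AGL72 MSTRG.29278 held 31.4% ± 5.67 in petiole and 81.6% ± 1.05 in leaf, MSTRG.7099 held 40.3% ± 5.59 in petiole and 13.7% ± 1.42 in leaf, and MSTRG.7098 held 19.8% ± 2.78 in petiole and 1.78% ± 0.398 in leaf (SD, n = 3 each). Of the other AGL71 and AGL72 loci, BraA08g020120.3C, MSTRG.9158 and BraA01g016140.3C had no counts, and BraA02g043090.3C had counts in 1 petiole library only, at 0.0265 CPM.

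The other SOC1 relatives were lower in petiole or did not pass. AGL42, a regulator of floral ageing, had at MSTRG.5846 (A02:30117502-30125604) 31.3, 27.8 and 29.5 CPM in petiole and 78.1, 68.6 and 61.1 CPM in leaf. It was 2.35-fold lower in petiole (log2 fold change -1.23 ± 0.09, SE, edgeR adjusted p = 7.80e-07). AGL19, a promoter of flowering in the cold, had at MSTRG.22567 (A08:12512123-12516297) 9.57, 12.8 and 11.9 CPM in petiole and 28.4, 25 and 26.3 CPM in leaf, 2.33-fold lower in petiole (log2 fold change -1.22 ± 0.12, SE, edgeR adjusted p = 5.19e-06). Both stayed negative on FPKM, at -0.41 and -0.44. AGL14, which acts in meristems of root and shoot, had at MSTRG.25984 (A09:18031589-18036000) 7.92, 7.40 and 6.12 CPM in petiole and 12.4, 15 and 13.4 CPM in leaf, a log2 fold change of -0.93 ± 0.13 (SE, edgeR adjusted p = 1.09e-04) that missed the threshold on FPKM (-0.16, limma adjusted p = 0.211). The AGL42-like locus MSTRG.24687 (A09:4108912-4114847) had 4.30 to 6.23 CPM in petiole and 4.79 to 6.21 CPM in leaf, overlapped and did not pass (edgeR adjusted p = 0.742). A second AGL42-like locus, BraA06g025660.3C, and a second AGL19 locus, BraA01g013570.3C, had no counts.

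FT, the mobile signal made in phloem companion cells, had 0 counts in all 6 libraries at its single locus, BraA02g016700.3C (A02:8897950-8900440). A count of 0 allows up to 12 units (3 fragments) in a library, which corresponds to at most 0.0898 CPM in petiole and 0.118 CPM in leaf and covers counting error only. Markers of the phloem were present, at 201.6 to 210.2 CPM in petiole and 328.9 to 342.2 CPM in leaf. FT was therefore not detectable at this depth in either tissue. Across the FT and SOC1 clade, 3 of 11 tested loci rose (27.3%) and 6 fell (54.5%) with TMM, against 31.5% and 31.1% of all loci tested. Of the 6 that fell, 5 were also negative on FPKM.

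**Figure D4:**
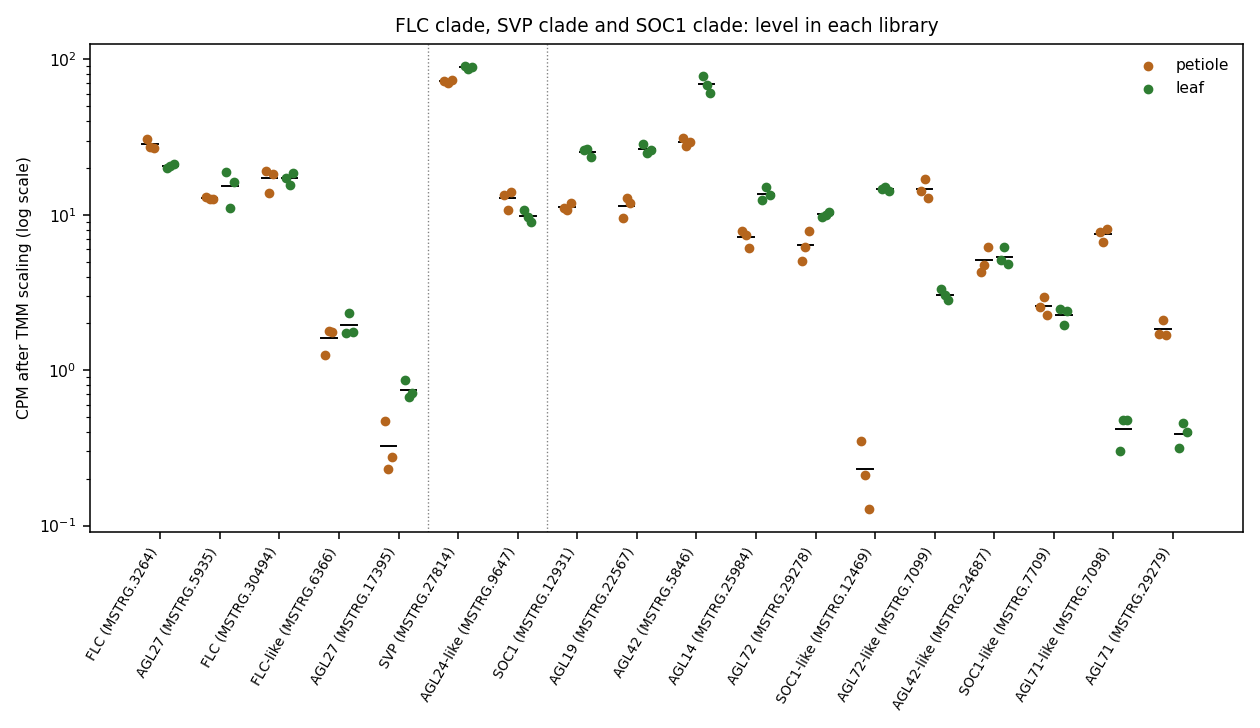
Level in each library (y axis, CPM after TMM scaling, log scale) of the 18 tested loci of the FLC, SVP and SOC1 clades (x axis); points are libraries and the short lines are means of 3. Petiole and leaf libraries overlap for FLC MSTRG.30494, AGL27 MSTRG.5935, FLC-like MSTRG.6366, AGL42-like MSTRG.24687 and SOC1-like MSTRG.7709, and lie far apart for SOC1-like MSTRG.12469 and AGL71-like MSTRG.7098.

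FRIGIDA is a scaffold that raises FLC transcription, and its relatives carry the same domain. A member of this group had the highest level of all the flowering loci. FRIGIDA-like protein 4a, MSTRG.2156 (A01:21452030-21454329), stood at 133.3 ± 2.99 FPKM in petiole and 153.7 ± 0.858 FPKM in leaf (SD, n = 3 each), followed in both tissues by FRIGIDA-like protein 3, MSTRG.17942, at 60.1 ± 1.23 FPKM in petiole and 33.9 ± 0.605 FPKM in leaf. Next in petiole were FLC MSTRG.3264 at 31 ± 2.39, SVP at 29.2 ± 0.465 and FRIGIDA-like protein 3 MSTRG.24435 at 27 ± 2.49 FPKM, and neighbours in this order lie within their spread. Next in leaf was SVP at 21.6 ± 0.21 FPKM, then FLOWERING LOCUS K at 15.1 ± 0.974 and FLC MSTRG.3264 at 13.6 ± 0.421 FPKM.

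MSTRG.2156 had 299.2, 294.0 and 288.9 CPM in petiole and 566.5, 562.0 and 567.9 CPM in leaf. The libraries of a tissue lay close together, and it was 1.92-fold lower in petiole (log2 fold change -0.94 ± 0.03, SE, edgeR adjusted p = 2.58e-09; -0.20 on FPKM). The FRIGIDA-like protein 3 copies differed. MSTRG.24435 (A09:2559133-2561715) had 51.3, 54.6 and 61.9 CPM in petiole and 45.9, 38.0 and 44.7 CPM in leaf, and rose by 0.38 ± 0.09 on the log2 scale (SE, edgeR adjusted p = 0.00375). MSTRG.17942 (A06:24012482-24014763) had 98.0 to 102.8 CPM in petiole and 93.4 to 97.3 CPM in leaf, without overlap, and missed the threshold with TMM (log2 fold change 0.09 ± 0.04, SE, edgeR adjusted p = 0.0969), while it passed with upper-quartile factors (0.16), library totals (0.40) and FPKM (0.81). FRIGIDA-like protein 5, MSTRG.17821 (A06:23241444-23244586), had 2.44, 3.17 and 3.78 CPM in petiole and 0.618, 1.30 and 0.669 CPM in leaf, and rose 3.63-fold (log2 fold change 1.86 ± 0.34, SE, edgeR adjusted p = 7.47e-04).

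FRIGIDA itself has 2 loci, and both were called lower in petiole with TMM. MSTRG.7123 (A03:7001311-7003488) had 7.90, 8.02 and 8.19 CPM in petiole and 13.6, 12.5 and 11.5 CPM in leaf (log2 fold change -0.64 ± 0.11, SE, edgeR adjusted p = 3.90e-04), and MSTRG.29230 (A10:7162568-7164778) averaged 8.80 CPM in petiole and 12 CPM in leaf (-0.44 ± 0.13, SE, edgeR adjusted p = 0.0131). On FPKM they stood at 0.08 and 0.22, and with library totals at -0.33, which still passed, and -0.14, which did not. MSTRG.29230 overlaps a locus on the other strand, so the counts of that pair may be mixed. The truncated FRIGIDA-like protein 1 locus MSTRG.30167, whose Arabidopsis counterpart is needed with FRIGIDA, averaged 8.22 CPM in petiole and 12.9 CPM in leaf (log2 fold change -0.65 with TMM, edgeR adjusted p = 5.37e-04, and 0.08 on FPKM).

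FRIGIDA-ESSENTIAL 1, a zinc-finger partner of FRIGIDA, had at MSTRG.13326 (A05:5957231-5961904) 13, 14.5 and 11.6 CPM in petiole and 24.9, 27.3 and 25.8 CPM in leaf. It was 1.99-fold lower in petiole with TMM (log2 fold change -0.99 ± 0.10, SE, edgeR adjusted p = 6.99e-06) and did not pass on FPKM (-0.21, limma adjusted p = 0.0744). It overlaps an undescribed locus, MSTRG.13327, on the other strand. The second copy, MSTRG.9113, had 6.39 to 7.47 CPM in petiole and 6.46 to 7.49 CPM in leaf and did not pass (edgeR adjusted p = 0.869). It passed as higher with library totals (0.34, edgeR adjusted p = 0.0492) and on FPKM (0.59, limma adjusted p = 5.33e-04). FRIGIDA-like protein 2 MSTRG.26332, a further FRIGIDA-like protein 3 locus, MSTRG.5590, and a FRIGIDA-ESSENTIAL 1-like locus, BraA03g017910.3C, stood between 0.415 and 2.02 CPM in every library and did not pass (edgeR adjusted p = 0.398, 0.93 and 0.55). On FPKM only MSTRG.26332 of these passed, at 0.50 (limma adjusted p = 0.00806), close to the all-loci median of 0.47. In the FRIGIDA group as a whole 2 of 12 tested loci rose (16.7%) and 5 fell (41.7%) with TMM, against 31.5% and 31.1% of all loci tested. Of the 5 that fell, 2 were negative on FPKM.

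The VERNALIZATION proteins silence FLC after cold. VERNALIZATION 2 is a polycomb subunit, and the VERNALIZATION INSENSITIVE 3-like (VIN3-like) proteins are PHD-finger partners of that complex. MSTRG.18316 (A06:26686911-26691522), VIN3-like, had 1.59, 2.00 and 1.91 CPM in petiole and 4.97, 4.52 and 4.91 CPM in leaf, 2.62-fold lower in petiole (log2 fold change -1.39 ± 0.19, SE, edgeR adjusted p = 8.25e-05). MSTRG.3929 (A02:6034769-6036800), also VIN3-like, had 1.21, 1.61 and 1.87 CPM in petiole and 3.92, 4.17 and 3.84 CPM in leaf (log2 fold change -1.35 ± 0.22, SE, edgeR adjusted p = 3.75e-04). In both the leaf libraries were all above the petiole ones, and both were negative and passed on FPKM (-0.38 and -0.33). The third VIN3-like locus, MSTRG.6915, had 0.494 to 0.749 CPM in petiole and 1.00 to 1.60 CPM in leaf and missed the threshold (log2 fold change -0.94 ± 0.40, SE, edgeR adjusted p = 0.0617). VERNALIZATION 2-like MSTRG.22386 (A08:10507282-10510150) had 12.9, 11.5 and 15.6 CPM in petiole and 19.4, 18.7 and 16.4 CPM in leaf, a log2 fold change of -0.45 ± 0.12 with TMM (SE, edgeR adjusted p = 0.009) that did not pass with library totals (-0.14) and was 0.25 on FPKM.

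FLOWERING LOCUS K, an RNA-binding protein of the autonomous pathway that lowers FLC, had at MSTRG.8290 (A03:15759674-15763078) 43.4, 39.6 and 41.2 CPM in petiole and 67.6, 59.0 and 61.0 CPM in leaf. It was 1.51-fold lower in petiole with TMM (log2 fold change -0.59 ± 0.07, SE, edgeR adjusted p = 1.72e-05) and stood at 0.14 on FPKM.

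The floral organ and meristem identity genes were nearly silent in both tissues. The AGL3 (SEPALLATA 4), AGL5 (SHATTERPROOF 2), AGL11 (SEEDSTICK) and AGL13 loci had no counts or at most 0.246 CPM in any library. The loci with more counts were AGL1 (SHATTERPROOF 1), which specifies the opening zone of the fruit, and AGL8 (FRUITFULL), which acts in meristem and fruit. AGL1 MSTRG.27399 averaged 2.80 FPKM in petiole and 0.784 FPKM in leaf, and AGL8 MSTRG.24651 averaged 0.676 FPKM in petiole and 1.53 FPKM in leaf. MSTRG.27399 (A09:36714272-36717415, plus strand) had 5.03, 4.77 and 5.38 CPM in petiole and 2.30, 2.58 and 2.21 CPM in leaf, and rose 2.14-fold (log2 fold change 1.10 ± 0.17, SE, edgeR adjusted p = 2.55e-04). It overlaps MSTRG.27400, a galacturonosyltransferase locus on the minus strand. The libraries were strand-specific, but without a statement that strand was used in counting, the counts of the pair may be mixed. AGL8 MSTRG.24651 had 0.563, 0.803 and 0 CPM in petiole and 1.5, 1.31 and 2.36 CPM in leaf, and did not pass (edgeR adjusted p = 0.228); without petiole replicate 3, where it had no counts, it passed at -1.33 (edgeR adjusted p = 0.0235). A second AGL8 locus, BraA06g014470.3C, had at most 0.15 CPM in any library. The AGL9 (SEPALLATA 3) locus BraA07g012310.3C had at most 0.113 CPM in petiole and 0.206 CPM in leaf and did not pass (edgeR adjusted p = 0.97). Floral genes whose descriptions lack the search words were looked up after these values were seen. The loci for APETALA 3, PISTILLATA and the SEPALLATA 1 and 2 proteins had no counts, and an AGAMOUS locus, BraA03g048590.3C, averaged 0.154 CPM in petiole and 0 in leaf. An APETALA 1 A-like locus, MSTRG.4364, of the genes that start the floral meristem, had 0 in every petiole library and 0.226, 0.457 and 0.194 CPM in leaf. It was lower in petiole, by at least 3.46-fold against the floor of 12 units per petiole library (edgeR adjusted p = 0.00362; -0.28 on FPKM, limma adjusted p = 0.047).

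Among the other MIKC-type genes, the structural class that FLC and SOC1 belong to, the AGL16 copies went opposite ways with TMM. AGL16 delays flowering and takes part in stomatal patterning. MSTRG.10087 (A03:31089197-31092605) had 6.79, 5.67 and 8.39 CPM in petiole and 5.36, 3.97 and 4.39 CPM in leaf and rose by 0.60 ± 0.19 on the log2 scale (SE, edgeR adjusted p = 0.0158), a call lost without petiole replicate 3 or leaf replicate 2 (adjusted p 0.0736 and 0.0571). MSTRG.318 (A01:1964213-1966977) had 6.23, 5.47 and 5.53 CPM in petiole and 7.89, 8.53 and 7.71 CPM in leaf and fell by 0.49 on the log2 scale with TMM (SE 0.13, edgeR adjusted p = 0.00687), but did not pass with library totals (-0.18) and was 0.17 on FPKM. As a share of the 2 copies' summed FPKM, MSTRG.10087 held 53.0% ± 5.14 in petiole and 34.8% ± 4.28 in leaf (SD, n = 3 each; exact permutation p = 0.1, the smallest possible). AGL18, a repressor of flowering, had at MSTRG.10642 2.29 to 3.37 CPM in petiole and 1.67 to 2.58 CPM in leaf and did not pass (edgeR adjusted p = 0.183), though it passed with library totals (0.74) and on FPKM (0.71). A second AGL18 locus, BraA07g022820.3C, had 0.0994, 0.0774 and 0.329 CPM in petiole and 0 in every leaf library. It was called higher (edgeR adjusted p = 0.0147; limma adjusted p on FPKM 0.0973), but petiole replicate 2, at 11 units, lay under the 12 units that a count of 0 allows, so no fold is given. The call was lost without petiole replicate 3, the high library (edgeR adjusted p = 0.0759). AGL15, known from embryos, had at BraA10g025090.3C 0.431 to 0.584 CPM in petiole and 0 to 0.243 CPM in leaf, without overlap. It did not pass (log2 fold change 2.29 ± 1.20, SE, edgeR adjusted p = 0.122), though on log2(FPKM + 1) it passed at 0.58 (limma adjusted p = 0.00202). The root genes AGL12 and AGL17 were silent or close to it, with 4 of their loci at 0 in all libraries and 1 tested, AGL12 BraA07g029500.3C, at 0 to 0.314 CPM in petiole and 0.324 to 0.588 CPM in leaf (edgeR adjusted p = 0.36).

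The type I and MIKC star group is the largest, and its members were mostly silent. Of 67 loci, 39 had no counts, among them AGL97, AGL80, AGL75, AGL61 and PHERES 1-like loci, and 20 more had too few counts to test. AGL80 is a regulator of the central cell of the embryo sac. Its locus BraA09g026200.3C (A09:17609523-17610437) had 0.225, 0.282 and 0.232 CPM in petiole and 0 in every leaf library, and rose at least 2.13-fold against the floor of 12 units per leaf library (edgeR adjusted p = 0.00493, and 0.0136 to 0.0202 with a library left out). AGL65, a MIKC star gene known from pollen, had at MSTRG.16453 0.795, 1.18 and 1.36 CPM in petiole and 0, 0.317 and 0.0582 CPM in leaf, and rose with a log2 fold change of 3.13 ± 1.10 (SE, edgeR adjusted p = 0.0334). Leaving out any petiole replicate or leaf replicate 3 ended that call (adjusted p 0.0551 to 0.107). The AGL65 loci BraA06g014430.3C and BraA09g057040.3C were also tested and did not pass. Their log2 fold changes were 1.09 ± 1.34 and 0.80 ± 1.73 (SE, edgeR adjusted p = 0.498 and 0.705). Of the 8 tested loci of the group, 2 rose, 0 fell and 6 did not pass. By FPKM the pollen gene AGL30 had the highest level of the group. MSTRG.18257 had 6.98, 7.21 and 6.55 CPM in petiole and 8.32, 7.92 and 7.52 CPM in leaf, without overlap, and did not pass (log2 fold change -0.20 ± 0.12, SE, edgeR adjusted p = 0.179; 0.40 on FPKM). The flower bud marker list, which holds anther and pollen genes, summed to 279.7 to 288.4 CPM in petiole and 149.7 to 160.1 CPM in leaf, without overlap. Of its 20 tested loci 6 were higher and 6 lower (30.0% each), near the 31.5% and 31.1% of all loci tested. The gap between these sums lay mostly at pollen-specific protein SF21-like MSTRG.6271, the locus of the list with the highest level in petiole. It had 117.4, 115.7 and 116.5 CPM in petiole and 23.2, 24.7 and 24.3 CPM in leaf. The part of the flower bud list in the levels of the floral and pollen genes was not tested. Of the 44 loci of that list, 19 had no counts, among them LEAFY, UNUSUAL FLORAL ORGANS, CRABS CLAW, the anther-specific APG loci and the tapetum-specific A9 locus. The other 25 had counts. TAPETUM DETERMINANT 1 MSTRG.1171 averaged 1.66 CPM in petiole and 7.6 CPM in leaf. Pollen-specific extensin-like MSTRG.9326 averaged 46.2 CPM in petiole and 19.6 CPM in leaf. The anther-specific BCP1 loci had at most 0.0449 CPM in any library.

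Of the loci named only as MADS-box transcription factors, MADS 23 MSTRG.15392 (a name from rice) had 1.19, 0.655 and 0.718 CPM in petiole and 2.24, 2.53 and 1.70 CPM in leaf. It was 2.52-fold lower in petiole (log2 fold change -1.33 ± 0.34, SE, edgeR adjusted p = 0.0055) and missed the threshold on FPKM (-0.39, limma adjusted p = 0.0692). The locus named after the *Gnetum* gene GGM13, BraA09g033850.3C, averaged 0.342 CPM in petiole and 0.901 CPM in leaf and did not pass (edgeR adjusted p = 0.0686). It was lower in petiole with DESeq2 (adjusted p = 0.0419), with edgeR on counts divided by the step (adjusted p = 0.0365) and with edgeR without leaf replicate 1 (log2 fold change -1.73, adjusted p = 0.0272).

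**Figure D5:**
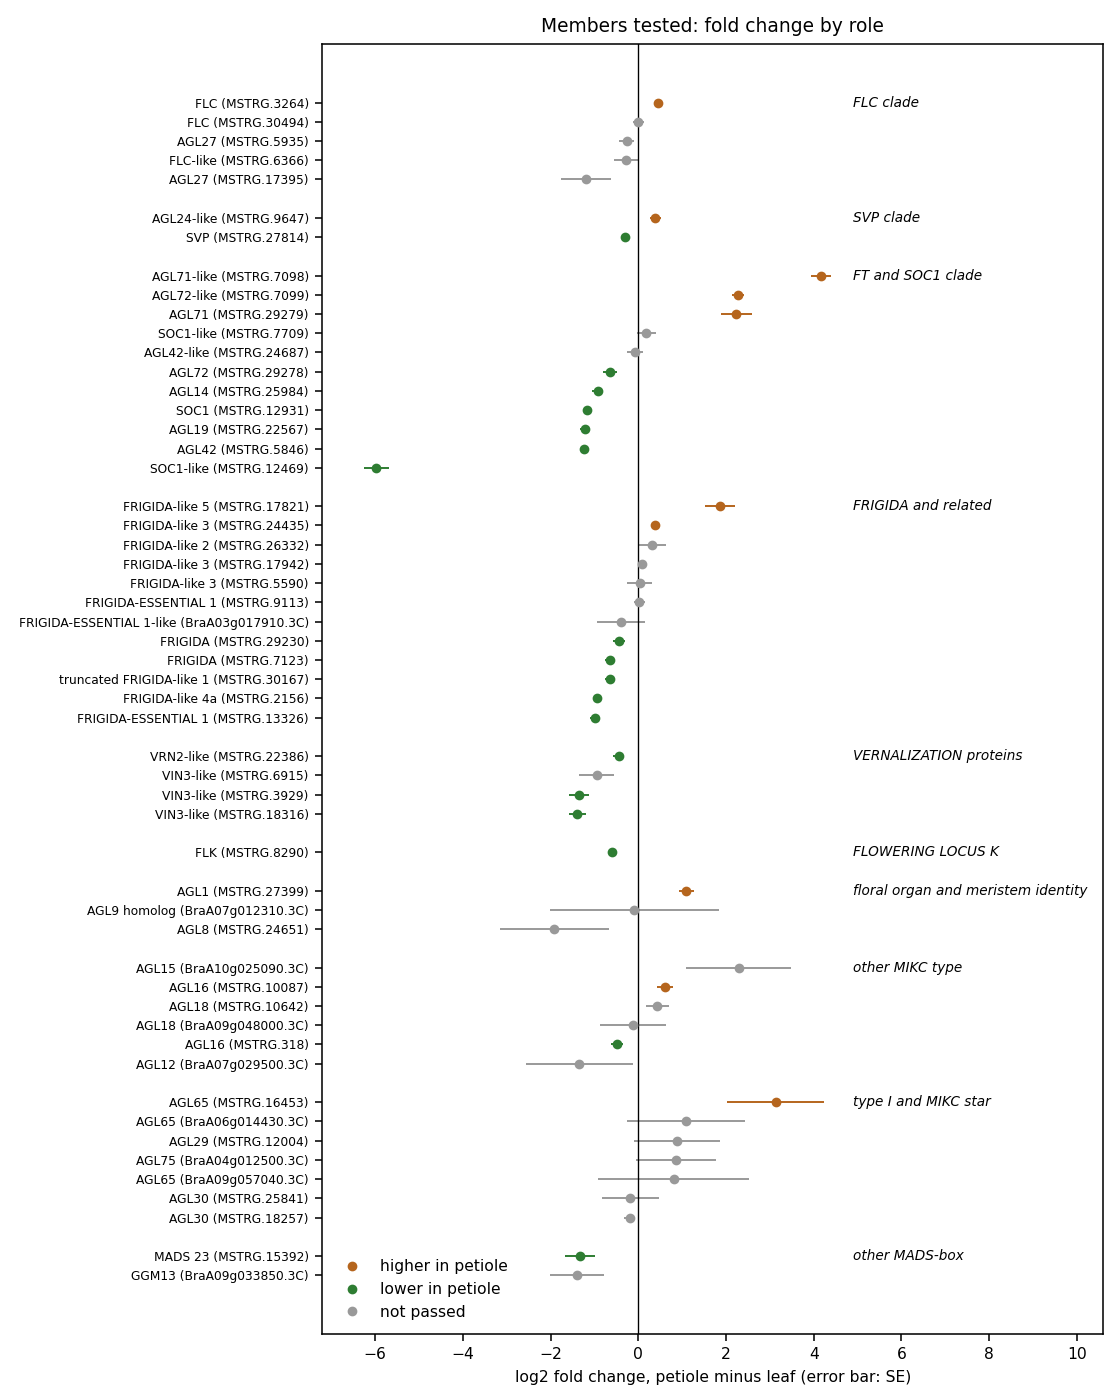
Log2 fold change (x axis, petiole minus leaf, bars are SE) of 53 tested loci grouped by role (y axis), coloured by their call. SOC1-like MSTRG.12469 at -5.98 and AGL71-like MSTRG.7098 at 4.16 are the ends of the range; AGL80 BraA09g026200.3C and AGL18 BraA07g022820.3C, with no leaf counts and hence no SE, are not drawn.

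Other genes of the flowering pathways, outside the 141, were taken as a list of 139 loci by description. With TMM, 20 of 95 tested loci rose (21.1%, against 31.5% of all loci) and 46 fell (48.4%, against 31.1%), with a median log2 fold change of -0.49, against 0.01 over all loci. With limma on log2(FPKM + 1) the list had 44 higher and 29 lower, and its median was 0.19, against 0.47 over all loci, of whose called loci 78.6% were higher. CONSTANS-like zinc-finger genes, relatives of the day-length sensor that activates FT, made up the largest block, with 20 of 29 tested loci lower in petiole, of which 17 were negative on FPKM as well, and 1 higher. CONSTANS-LIKE 6-like MSTRG.20677 had 0 in every petiole library and 20.2, 20.4 and 9.57 CPM in leaf, at least 197.4-fold lower in petiole against the floor of 12 units per library (edgeR adjusted p = 3.52e-04). CONSTANS-LIKE 16-like MSTRG.26627 had 0.179, 0.162 and 0 CPM in petiole and 23.5, 26.1 and 25 CPM in leaf (log2 fold change -7.73 ± 0.59, SE, edgeR adjusted p = 1.05e-04). Its copy MSTRG.19398 averaged 0.837 CPM in petiole and 14.5 CPM in leaf (log2 fold change -4.12 ± 0.22, SE, edgeR adjusted p = 5.56e-08).

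For the groups that follow, the shares over all loci tested were 31.5% higher and 31.1% lower with TMM. GIGANTEA and the EARLY FLOWERING 3 and 4 genes of the clock were lower in petiole for 6 of 7 tested loci (85.7%), of which 4 were negative on FPKM. All 3 RAV loci, of the AP2 and B3 domain type to which the TEMPRANILLO repressors of FT belong, and all 3 tested FLOWERING PROMOTING FACTOR 1-like loci fell, and these kept their sign on FPKM. Autonomous pathway genes such as FCA, FPA and FY were lower for 5 of 7 tested loci (71.4%) with TMM, but 4 of those 5 were positive on FPKM. The SQUAMOSA promoter-binding-like factors, which drive the change to the adult phase, had 9 of 24 tested loci higher (37.5%) and 5 lower (20.8%) with TMM. The higher share was near that of all loci, and 4 of the 5 lower loci were positive on FPKM. SPL13A MSTRG.7140 averaged 13.3 CPM in petiole and 7.17 CPM in leaf (log2 fold change 0.90 ± 0.15, SE, edgeR adjusted p = 3.25e-04). SPL10 MSTRG.19351 and SPL2 MSTRG.18588 rose by 0.66 and 0.54 on the log2 scale (edgeR adjusted p = 0.00191 and 6.82e-04). The AP2-like factors, among them the TOE and SMZ repressors of flowering and the growth regulator ANT, had 7 of 15 tested loci higher and 3 lower with TMM, with a median of 0.63. All 7 were positive on FPKM, where the median of all loci moved towards petiole, and 2 of the 3 were negative there. FD is the partner of FT at the shoot tip. The FD-like locus MSTRG.212 had 7.15, 9.85 and 5.80 CPM in petiole and 4.11, 3.54 and 1.61 CPM in leaf, without overlap, and rose 2.46-fold (log2 fold change 1.30 ± 0.36, SE, edgeR adjusted p = 0.0138; 1.40 on FPKM), as 1 of 2 tested loci of LEAFY and FD. It overlaps a locus on the other strand. The libraries were strand-specific, but no source says that the strand was used in counting, so the counts of this pair may be mixed. The EMF and polycomb genes had 1 of 5 tested loci higher and 1 lower with TMM, the lower one being positive on FPKM. Of the 12 FT relatives of the PEBP family, 10 had no counts and none was tested. Mesophyll markers moved with the loci that were lower in petiole, 25 of 26 tested loci being lower there, and vascular and xylem markers with those that were higher, all 11 tested loci being higher. The phloem list went both ways, with 5 of 17 tested loci higher (29.4%) and 8 lower (47.1%). The part of tissue make-up in these results was not tested.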

How the data were processed

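The analysis used 1 table of the whole series with 49200 loci, in which the authors deposited an estimated count and an FPKM value for each of 6 libraries, 3 of petiole and 3 of leaf. The libraries were strand-specific and made from Trizol-extracted total RNA after ribosomal RNA removal, per the labels' protocols. The deposited FPKM are fragments scaled to transcript length and sequencing depth, per the file headers, and 0.0001 stood where the count was 0. The deposited estimated counts were whole numbers, so rounding changed nothing, and low counts rose in steps of 3.64 to 3.79 units over the libraries, so they were not a tally of fragments. For the plant genome build, the aligner and the counter, the name is not given in the sources used here. Bowtie 0.12.2 and mm8, a mouse build, appear in the submitters' processing notes with no role. Coordinates are those of the deposited table. Loci named MSTRG carry identifiers of a StringTie assembly, as 44 of the 55 tested loci did. No sequences are shown, because no sequence table for these loci was used here.

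Petiole was compared with leaf over all loci with edgeR 4.0.16 in R 4.3.3 (quasi-likelihood test, robust, filterByExpr, TMM factors 1.09 to 1.14 in petiole and 0.885 to 0.925 in leaf, tissue as the only term, two-sided, Benjamini-Hochberg threshold 0.05). Samples of a tissue correlated at 0.958 to 0.962, against 0.772 to 0.779 between tissues, and the biological coefficient of variation was 26.5%. Floors against a tissue at 0 used 3 fragments, or 12 units, per library. Alternatives were DESeq2 1.42.0, limma 3.58.1 on log2(FPKM + 1) and log2(FPKM + 0.1), each at a mean FPKM of at least 0.1, other size factors and filters, counts divided by the step, a replicate block and each library left out. The scripts were tested on simulated data. The replicate numbers carry no stated pairing.

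The members and all gene lists were chosen with earlier results of these data known. Role groups follow the names in the descriptions, and PHERES loci went with type I. Named loci are all of the FLC, SVP and SOC1 groups, in each other group the 3 with the highest mean FPKM and up to 3 called loci with the largest change and a mean of at least 1 CPM in the higher tissue, and in the pathway list up to 3 called loci per direction with a mean of at least 10 CPM; others were chosen after their values were seen. FLOWERING PROMOTING FACTOR was matched with or without a hyphen. The CLAVATA3 text matched only related peptides, which were left out of the meristem markers. A merged locus matching the rule, 1 of 691 merged loci, was left out of the members. Of the members 14 overlap another locus, 6 of them among those tested.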

Additional observations from a re-analysis of the deposited data

How the results depend on the processing

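The split of called loci into higher and lower depended on scaling, while 29 of the 30 flowering loci called with TMM kept their sign with library totals and 22 on log2(FPKM + 1). The 12 higher ones among them could hardly lose it, since both scalings move the median of all loci towards petiole. On the 3 limma fits, log2(FPKM + 1), log2(FPKM + 0.1) and log2(FPKM + 1) without a filter, all loci had 18364, 18449 and 18329 higher and 5000, 5006 and 5057 lower in petiole, against 9909 and 9802 with edgeR. The flowering loci had 24, 25 and 26 higher and 7 lower in each, against 12 and 18, and the pathway list had 44 higher and 29 lower, against 20 and 46. The median of the flowering loci, -0.18, was 0.25, 0.52 and 0.08 on these fits, 0.12 with library totals, 0.06 without a filter on low counts, -0.29 at a mean of at least 1 CPM and -0.29 on counts divided by the step, and it ranged between -0.24 and -0.06 with a library left out. The median of all loci was 0.72 on log2(FPKM + 0.1), 0.36 without a filter and 0.08 with upper-quartile factors. On the 3 FPKM fits the numbers were FLC clade 3 higher, SVP clade 2 higher and 0 lower, FT and SOC1 clade 5 higher, FRIGIDA group 5, 5 and 6 higher and 1 lower, FLOWERING LOCUS K 0 lower, other MIKC type 0 lower (and 4 higher on log2(FPKM + 0.1)) and type I and MIKC star 5, 5 and 6 higher. With library totals the SVP clade had 0 lower, the FRIGIDA group 4 higher and other MIKC type 0 lower. At a mean of at least 1 CPM other MIKC type had 1 higher and type I and MIKC star 0 higher, and on counts divided by the step type I and MIKC star had 1 higher. With a library left out the ranges were FLC clade 0 to 1 lower, SVP clade 0 to 1 higher, floral organ and meristem identity 0 to 1 lower, other MIKC type 0 to 2 higher and type I and MIKC star 1 to 2 higher. Leaving out petiole replicate 3 gave 8 flowering loci higher. Leaving out loci that overlap another gave 10 higher and 16 lower.

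The 8 called loci that turned on the 3 FPKM fits, and 3 that had not passed with TMM, stood as follows. AGL27 MSTRG.5935 stood at 0.47, 0.51 and 0.47, SVP MSTRG.27814 at 0.42, 0.43 and 0.42 (0.01 with library totals), AGL72 MSTRG.29278 at 0.05, 0.06 and 0.05, AGL42-like MSTRG.24687 at 0.46, 0.63 and 0.46, VERNALIZATION 2-like MSTRG.22386 at 0.25, 0.28 and 0.25, FLOWERING LOCUS K MSTRG.8290 at 0.14 in each, FRIGIDA MSTRG.7123 at 0.08, 0.10 and 0.08, FRIGIDA MSTRG.29230 at 0.22, 0.27 and 0.22, FRIGIDA-like protein 1 MSTRG.30167 at 0.08, 0.09 and 0.08, AGL16 MSTRG.318 at 0.17, 0.24 and 0.17, and AGL30 MSTRG.18257 at 0.40, 0.52 and 0.40. The cause was not tested. Same-numbered petiole and leaf libraries did not deviate together (correlations of deviations 0.0139, -0.0102 and 6.88e-05). In each tissue 1 of 3 libraries correlated best with its own number. With 3 libraries per tissue, this cannot exclude that the numbers pair them, because a shared plant may leave little trace beside library noise. With the replicate block 18683 loci were called, against 19711, the flowering loci had 11 higher and 18 lower, and other MIKC type had 1 higher. Loci under about 12 units per library cannot be told from 0 at this depth, which limits most type I and floral identity genes.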
